A study of Homo sapiens with 7 samples.

Results

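The region in front of NUP85 is a stretch of 984 bp on chromosome 17 (hg38, chr17:75204248-75205231) that ends 448 bp before the start of the gene. Its members are the constructs whose names in the authors' deposited tables give chromosome 17 and this region end, 11 of the 1025 mutant constructs and 0 of the 358 wild-type constructs. The study tested candidate regulatory regions by lentiMPRA, a massively parallel reporter assay delivered by lentivirus, in which a candidate sequence drives a barcoded transcript from an integrated reporter and the barcode's abundance in RNA is divided by its abundance in genomic DNA (gDNA). The cells were C4-2B, an established prostate cancer line of epithelial type that descends from LNCaP, and all carried the same reporter library, with no drug, genotype or time contrast. Of the 7 libraries, 1 linked barcodes to candidate sequences, and 3 gDNA and 3 RNA libraries were extracted together 48 hours after transduction. Because the reporter is read in a single line and away from the region's own chromosomal setting, the values describe the cloned sequence in C4-2B and not the activity of NUP85 itself.

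NUP85 encodes a structural subunit of the Y-shaped complex, also called the NUP107-NUP160 complex, which builds the outer rings on both faces of the nuclear pore. The pore is the channel through which proteins and RNA pass between nucleus and cytoplasm, and the Y complex is required to rebuild pores after mitosis and also binds kinetochores while chromosomes separate. Regulatory sequence just before a gene's start can hold binding sites for transcription factors, and a base change in such a site can raise or lower the transcription that the sequence drives.

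No gene of any kind in RefSeq's GRCh38.p14 gene table overlapped the region. NUP85 spans 75205679 to 75235758 on chromosome 17 and is read in the direction of rising coordinates, so the region lies upstream of it and is intergenic. On the other side, the nearest protein-coding gene was SUMO2, which encodes a small ubiquitin-like modifier, 21289 bp away. Beyond NUP85 lies GGA3, which encodes a clathrin adaptor of the trans-Golgi network, 31368 bp from the region. The name of a region states its nearest gene, not that it controls that gene.

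The sequence that the region leads up to is shown because it is the nearest stretch available here, and it lies outside the region, with 197 bases between them. It holds the 250 bases before the RefSeq start of NUP85 (GRCh38.p14, chr17:75205429-75205678, plus strand), with every CpG dinucleotide in capitals.
NUP85 promoter: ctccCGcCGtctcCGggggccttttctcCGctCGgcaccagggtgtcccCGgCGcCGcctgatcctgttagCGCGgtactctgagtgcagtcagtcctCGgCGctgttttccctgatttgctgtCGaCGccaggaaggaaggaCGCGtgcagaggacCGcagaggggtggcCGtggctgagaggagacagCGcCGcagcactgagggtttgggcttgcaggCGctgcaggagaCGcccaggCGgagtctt
It held 23 CpGs, more than 74.2% of 35116 RefSeq promoter windows of the same length, and 66.8% of its bases were G or C, a higher share than in 71.7% of those windows. None of 9 motifs searched on both strands had a match in it. They were GGGCGG (the GC box, found in 42.6% of the windows), CCAAT (the NF-Y core, 32%), CCGGAA (ETS factors, 14.5%), AGAACA (the androgen receptor half-site, 12.4%), TGANTCA (AP-1, 6.57%), CACGTG (the E-box, 6.34%), TGTTTAC (forkhead factors, 2.98%), the NRF1 palindrome (1.03%) and GATGGCGGC (YY1, 0.521%). These letters are missing from this window only, and none of the 11 mutants lies within it.

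Activity was taken from the authors' deposited tables, which give for each construct an estimate from a logit model, taken to be a log odds ratio (natural log) for RNA over gDNA. A positive value then means more RNA per gDNA from the mutant than from wild-type sequence, and folds are folds of these odds. The error after each ± is the standard error, obtained by dividing the estimate by its z value. A mutant is described as called at an adjusted p, as deposited, of under 0.05. The tables hold no value per replicate and no read or barcode counts, so the depth is unknown and the errors are those of the authors' model. The region was chosen by these same mutant estimates, in particular the low value of 1 mutant, so its values and calls are a description and no test is drawn from them.

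All 11 mutants carried a single-base substitution, each at a different position, and together they spanned 336 bp. They are numbered here as site 1 to site 11 in order of rising coordinate, so that site 11 is the one nearest to NUP85, and a change is named on the strand that carries the pyrimidine. Sites 1 to 5 lay within 82 bp and sites 7 to 11 within 71 bp, with site 6 between these groups. Gaps between neighbouring sites ran from 7 to 127 bp, with a median of 24 bp.

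Most estimates lay close to 0, and 1 lay far below it. Of the 11 mutants, the authors' deposited table called 2 higher, 2 lower and 7 neither, which is 36.4% called, where 56.6% of all mutants were called (29.5% higher and 27.1% lower). Estimates ran from -2.97 to 0.51 in the authors' deposited table, with a median of 0.03 against 0.02 over all mutants. In size, 8 of the 11 were at most 0.25, where 445 of all 1025 mutants were. The median size was 0.15 against 0.31 over all mutants in the authors' deposited table. By sign alone, 8 estimates were above 0 and 3 below it, where 538 of all 1025 were above 0 and 487 below it. Bonferroni adjustment left 1 of the 4 calls, that of site 11 described next, where it left 29.9% of all mutants called. With the z values divided by their robust SD of 3.92 over all mutants, none of the 11 was called, where 0.195% of all mutants were, and 0 of the 11 had an unadjusted p under 0.05. The 56.6% called and this SD rest on the same deposited errors, so neither can separate mutant effects from error.

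The lowest value belonged to site 11, a T-to-C change. Its estimate in the authors' deposited table was -2.97 ± 0.53, or 19.4-fold lower odds of RNA over gDNA than wild-type sequence (95% interval 6.86- to 55.1-fold, adjusted p = 1.73e-07). That estimate ranked 12 from the lowest of 1025 mutants, and 5 from the lowest among the 580 called, in the authors' deposited table. It was also the least precise of the region, with a standard error larger than those of 96.7% of all mutants in the authors' deposited table. The site thus combines the largest shift of the 11 with the widest interval, whose end nearest to 0 lies at -1.93. Since the region was chosen for this low value, the interval is a description and makes no allowance for that choice.

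The other mutant called lower was site 7, a T-to-G change, which the authors' deposited table put at -0.48 ± 0.16, a 1.61-fold drop of the odds (95% interval 1.17- to 2.21-fold, adjusted p = 0.00687). Site 9, a T-to-C change, was the highest of the region, and the authors' deposited table put it at 0.51 ± 0.17, a 1.67-fold rise of the odds (95% interval 1.19- to 2.36-fold, adjusted p = 0.00708). These are moderate shifts, close to the median size of 0.53 among all called mutants in the authors' deposited table, and they run in opposite directions. Site 2, a C-to-T change, was called higher, with an estimate in the authors' deposited table of 0.22 ± 0.10, which is 1.25-fold (95% interval 1.03- to 1.52-fold, adjusted p = 0.0461), just inside the threshold.

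The first mutant outside the threshold was site 3, also a C-to-T change, with 0.22 ± 0.15 as its estimate in the authors' deposited table (adjusted p = 0.220). Sites 2 and 3 lay 24 bp apart and their estimates were nearly equal, with a combined standard error of 0.18 for the difference, so the call at one and not at the other follows their errors of 0.10 and 0.15 and not their estimates. This combined error, and those below, treat the 2 estimates as independent, although the mutants may share wild-type reads.

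In the group of sites farther from NUP85, sites 1 to 5, the estimates lay between -0.09 and 0.22 in the authors' deposited table. For site 1, a C-to-A change, the authors' deposited table gave -0.09 ± 0.19, with no call (adjusted p = 0.734). For sites 4 and 5, both T-to-G changes, the authors' deposited table gave 0.08 ± 0.09 and 0.03 ± 0.06, again with no call (adjusted p = 0.489 and 0.676). The error at site 5 was the smallest of the 11, and its 95% interval of -0.09 to 0.16 allows at most 1.17-fold higher odds. Site 1 was measured less well, with an interval of -0.46 to 0.29 that leaves room for shifts of the size seen at site 2.

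Site 6, a C-to-T change 127 bp beyond site 5, had an uncalled value of 0.02 ± 0.07 in the authors' deposited table (adjusted p = 0.869). Its 95% interval of -0.12 to 0.16 also lies close to wild-type sequence.

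The group nearer to NUP85, sites 7 to 11, had 3 of 5 mutants called, or 60%, near the 56.6% of all mutants, and its estimates ran from -2.97 to 0.51. Within it, called and uncalled sites alternated. Site 8, a C-to-A change 7 bp from site 7, had 0.01 ± 0.09 as its estimate in the authors' deposited table (adjusted p = 0.938). Site 10, a T-to-C change between sites 9 and 11, had 0.15 ± 0.15 as its estimate in the authors' deposited table (adjusted p = 0.402). Neither was called, although each lay between a pair of called sites.

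Differences between neighbours give the steps between the values along these 71 bp. Whether neighbouring mutants were compared with the same wild-type construct is not stated, so the steps need not lie along a single sequence. Site 8 stood 0.49 ± 0.18 above site 7, and site 9 stood 0.50 ± 0.20 above site 8. From site 10 to site 11, 24 bp apart, the difference was -3.12 ± 0.55, the widest step of the region. Sites 9 and 10 differed by -0.36 ± 0.23.

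Across the region, 7 neighbour pairs lay up to 30 bp apart, with a median difference of 0.36 in size and 4 of the 7 of the same sign. In other regions 304 such pairs had a median difference of 0.43 (quartiles 0.21 and 0.84), and 156 of the 304 had the same sign. The median step at NUP85 thus lay between the quartiles of the other regions. The 3 NUP85 pairs farther apart differed by 0.02, 0.04 and 0.49 in size. Their median of 0.04 was below the lower quartile of 0.20 among 311 such pairs elsewhere. The largest, from site 6 to site 7, was above the median of 0.46 of those pairs. The step from site 10 to site 11 was exceeded by 9 of all 625 neighbour pairs, which lay in 8 regions. Estimates beyond 10 in size were left out of these pairs.

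By kind of change, the region held 3 T-to-C, 3 C-to-T, 3 T-to-G and 2 C-to-A mutants, and no insertion or deletion. The T-to-C mutants were the most spread, with site 9 called higher, site 11 called lower and site 10 not called. The C-to-T mutants were all above 0, from 0.02 to 0.22 in the authors' deposited table, with 1 of 3 called. Of the T-to-G mutants, 1 of 3 was called, and of the C-to-A mutants 0 of 2. Over the whole of the authors' deposited table the called shares of these kinds were alike, at 57.5%, 55.3%, 55.3% and 55.4%. With 2 or 3 mutants of a kind here, no order among kinds can be read.

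The wild-type sequence of the region cannot be placed against scrambled sequence, because the authors' deposited wild-type table as used here holds no construct of it. The same holds for 289 of the 376 regions with mutants, while 87 are in both tables. It is therefore not known from these values whether the wild-type sequence drove transcription in C4-2B above, below or at the level of scrambled sequence, nor what level the drop at site 11 started from.

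Among the 9 other regions with at least 10 mutants, from 36.4 to 75% of a region's mutants were called in the authors' deposited table, and the NUP85 share equals the lowest of these, that of the region 1865 bp from HNRNPR, a gene of a nuclear RNA-binding protein. All 9 held mutants called in both directions, as did NUP85. The distance from lowest to highest estimate was 3.48 at NUP85 in the authors' deposited table. It was larger in 2 of the 9, at DIO3, where it was 3.76, and at CHLSN, where an estimate beyond 10 in size set it. With the most extreme mutant of each region left out it was 0.99 at NUP85 and between 0.70 and 1.51 in the 9 others. The median standard error was 0.15 at NUP85, within the range of 0.03 to 0.22 of those regions. It was larger only in the TDRD9 region, at 0.22, and was 0.12 over all mutants.

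Without NUP85, 39 regions lay within 1000 bp of a protein-coding gene without overlapping one. The CHMP4B region, with 13 mutants, was among both these 39 and the 9 above. The 39 regions held 127 mutants, and the authors' deposited table called 53.5% of them, 33 higher and 35 lower. By region the called share ran from 0 to 100%, and it was below the 36.4% of NUP85 in 14 of the 39. The distance from lowest to highest estimate was larger than at NUP85 in 1 of the 39, the region near MCPH1, where it was 4.14, although many of these regions held only a few mutants.

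Of 31 nuclear pore genes listed for comparison, 2 overlapped or were nearest to a tested region, NUP85 and POM121. POM121 encodes a membrane-spanning pore protein that anchors the pore in the nuclear envelope, and its region lies inside the gene (chr7:72922419-72924066). Of its 6 mutants the authors' deposited table called 2 higher and 2 lower, which is 66.7%, against 36.4% at NUP85 and 56.6% of all mutants. The called POM121 estimates were 0.83 ± 0.12, 0.17 ± 0.07, -0.32 ± 0.11 and -0.38 ± 0.08 in the authors' deposited table. None of the 6 came near the estimate of site 11, the low value by which the NUP85 region was chosen.

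On chromosome 17 the tested regions closest to that of NUP85 lay 45962 bp away, near JPT1, and 327330 bp away, inside LLGL2, a cell polarity gene. The JPT1 region had 1 of 2 mutants called, in the higher direction, with 0.87 ± 0.13 as its value in the authors' deposited table. The LLGL2 region had 1 of 5 called higher, at 0.28 ± 0.06, and 3 called lower, from -0.93 to -0.40, in the authors' deposited table. The estimate of site 11 lay below all 7 mutants of these neighbours. Since the NUP85 region was chosen for that low value, this describes the choice and sets no contrast with the neighbours.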

How the data were processed

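The analysis started from 2 tables that the authors deposited, which compare wild-type with scrambled sequence and mutant with wild-type sequence. Per the file headers a logit model was used, and the deposited estimate was read here as a natural log odds ratio, the usual scale of such a model. No source used here states the scale, and every fold rests on that reading. The z value, a score, as well as the p-value and q-value, were deposited by the authors beside it. Each construct has 1 value for all libraries, and how the replicates entered the model is not stated. The submitters' processing notes list Bowtie2 and hg38 but no version or use of either, and for barcode filters and construct length the sources used here say nothing. The direction of an estimate follows the way each table is named. Recomputing both kinds of p gave the same p-value from z under a normal distribution, two-sided, and the same q-value by Benjamini-Hochberg adjustment over the whole table. The standard error is the estimate divided by z, and intervals are 95% normal intervals. Whether the gDNA and RNA replicates were separate cultures is not stated.

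Starts in construct names were raised by 1 base. Genes came from 19993 protein-coding genes of GRCh38.p14, without chromosome Y. Python 3.11.15, pandas 2.3.3 and scipy 1.17.1 were used. All constructs of the region are named, other regions by number of mutants, by distance to a gene, by the pore list, or by closeness on chromosome 17, the last chosen after values were seen. The members and lists were chosen with earlier results of these data known. No position of a mutation is printed, and the region's own sequence was not used here.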

Additional observations from a re-analysis of the deposited data

How the results depend on the processing

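The 4 calls of the NUP85 region depended on the threshold, on the adjustment and on the scaling of z. At an adjusted p under 0.01, and likewise with a minimum of 1.5-fold, sites 7, 9 and 11 kept their calls, 3 of the 4 (48% and 35.8% of all mutants were called). All 4 were kept at an adjusted p under 0.1 and without estimates beyond 10 in size (63.2% and 56.7% of all mutants). Bonferroni adjustment left 1, site 11, where 29.9% of all mutants were kept. Dividing every z by 3.92, the robust SD over all mutants, left 0 calls in the region and 2 among all 1025 after Benjamini-Hochberg adjustment. Site 11 then had an unadjusted p of 0.155, and 0 of the 11 had one under 0.05. The value of 3.92 was taken over all mutants, 56.6% of which were called as deposited. It therefore cannot separate mutant effects from error, and the loss of calls does not show that the model's errors were too small. The estimates themselves do not move under these settings. No paired analysis was possible because the tables hold no values per replicate, so no replicate could be left out either. The alternatives planned for wild-type constructs were not run, since the wild-type table used here holds none of this region. The depth behind each estimate is unknown.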
